A study of Mus musculus with 2 samples.

Results

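The 9 Hoxd genes of the mouse were examined in total RNA sequencing of the embryonic limb. They were taken as the protein-coding Hoxd genes Hoxd1, Hoxd3, Hoxd4, Hoxd8, Hoxd9, Hoxd10, Hoxd11, Hoxd12 and Hoxd13, matched by gene identifier without its version, among 69691 deposited rows, of which 43346 were Ensembl genes and 21474 protein-coding. The samples formed 1 group, healthy limb of strain B6NCrl embryos at embryonic day 12.5, with 2 biological replicates and no transgene, treatment or second condition named in the labels. Replicate 1 pooled limbs of 88 embryos and replicate 2 pooled limbs of 68 embryos, each of both sexes. Each library began with 10 ng of RNA longer than 200 nt. The labels name neither fore- nor hindlimb and no segment of the limb, so a level is a mean over all cells of whole limbs, and fewer cells of a type cannot be told apart from less RNA per cell. The libraries summed to 29810026 and 29938721 expected counts.

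Hoxd genes encode homeodomain transcription factors and lie in a row, all on the same strand, in an order that matches where along the body and limb they act. In limb buds the cluster is used in successive waves: an early wave serves the upper arm and forearm, and a later wave, driven by enhancers beyond the Evx2 side of the cluster, serves the future digits. Hoxd13 and its neighbours act in the hand and foot plate together with Hoxa13, whereas genes at the other end are known mainly from the trunk, neck and hindbrain. Genes 9 to 13 are called posterior here and genes 1 to 8 anterior. A number shared between clusters, as in Hoxd11 and Hoxa11, marks paralogs, which descend from a common ancestral gene.

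The homeobox is the stretch that codes for the DNA-binding homeodomain. Its segment for most of the third helix, which enters the major groove of DNA, is shown for all 9 genes because it is among the most conserved parts of the family and reads from it have to be assigned to the right gene. Each is 33 nt of a coding transcript of GENCODE M21, in mm10, 5′ to 3′, with bases that differ from Hoxd13 in capitals.
Hoxd13: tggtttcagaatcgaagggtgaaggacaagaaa
Hoxd12: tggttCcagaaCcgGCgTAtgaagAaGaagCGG
Hoxd11: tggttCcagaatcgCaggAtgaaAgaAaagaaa
Hoxd10: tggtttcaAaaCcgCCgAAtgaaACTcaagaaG
Hoxd9: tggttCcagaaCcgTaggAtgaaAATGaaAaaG
Hoxd8: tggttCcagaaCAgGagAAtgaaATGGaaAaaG
Hoxd4: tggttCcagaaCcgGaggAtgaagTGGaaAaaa
Hoxd3: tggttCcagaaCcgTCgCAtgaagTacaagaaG
Hoxd1: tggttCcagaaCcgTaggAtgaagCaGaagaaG
Hoxd11 differed from Hoxd13 at 5 of these 33 bases, the fewest among the 8 genes, and Hoxd8 differed at 12, the most. Over the whole homeobox of 180 nt, identity within Hoxd9 to Hoxd13 had a median of 63.9% (10 pairs, 56.1% to 71.1%), identity within Hoxd1 to Hoxd8 a median of 62.5% (6 pairs, 54.4% to 68.3%), and identity between these groups a median of 56.7% (20 pairs, 50.0% to 68.3%). The longest run of identical bases shared by any pair, wherever it lay in each homeobox, was 32 nt, between Hoxd9 and Hoxd1.

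Hoxd expression was carried by the posterior genes. Hoxd9 to Hoxd13 summed to 254.2 TPM (a level scaled by transcript length and by the total of the library) in replicate 1 and 286.24 TPM in replicate 2, while Hoxd1, Hoxd3, Hoxd4 and Hoxd8 together summed to 8.31 and 8.61 TPM. The posterior sum was 31.9 ± 1.88 times the anterior sum (SD, n = 2) and made up 97.0% ± 0.174 of all Hoxd TPM. Hoxd11, Hoxd12 and Hoxd13 alone held 79.2% ± 1.13. In all, 7 of the 9 genes had 1 TPM or more in both, beside 59.2% of all 21474 protein-coding genes, and Hoxd4 and Hoxd1 did not.

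**Figure D1:**
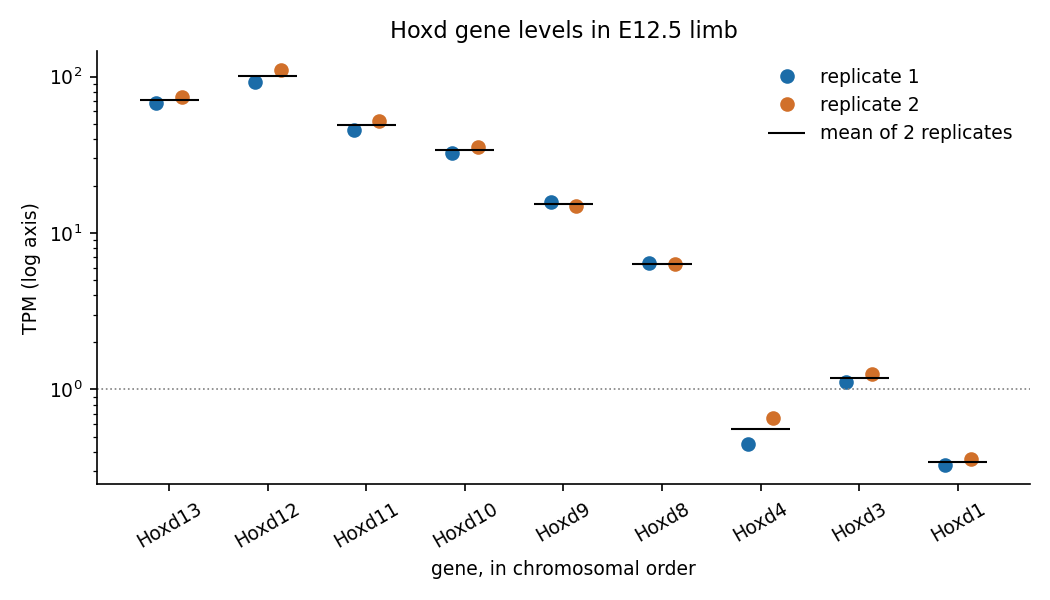
TPM of the 9 Hoxd genes on a log axis, in chromosomal order from Hoxd13 to Hoxd1. Points are the 2 replicate libraries, black bars their mean, and the dotted line marks 1 TPM. The level peaked at Hoxd12 and fell below 1 TPM at Hoxd4 and Hoxd1.

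Hoxd13, the outermost gene and a regulator of digit formation, had 67.31 TPM in replicate 1 and 74.23 TPM in replicate 2 (mean 70.8 ± 4.89 SD, n = 2). These rested on 3006 counts (95% exact Poisson interval 2899 to 3115) and 3338 counts (3226 to 3453). The gene, ENSMUSG00000001819.4, lies at chr2:74668310-74671599 on the plus strand of mm10, as all members do, and has 1 annotated transcript of 2 exons.

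Hoxd12, ENSMUSG00000001823.5 at chr2:74675013-74677705, had the highest level of the cluster. Its libraries stood at 92.93 and 109.4 TPM (101 ± 11.6 SD, n = 2), with 4239 and 5025 counts, and it took 36.3% ± 1.20 of the Hoxd sum. By mean TPM it ranked 1633 among protein-coding genes, above 92.4% of them. Within libraries Hoxd12 was 1.38-fold and 1.47-fold above Hoxd13 (log2 ratio 0.51 ± 0.07), so the highest level lay beside the outer end of the cluster and not at it.

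Hoxd11, which patterns the forearm and lower leg with Hoxa11, followed at 45.59 and 52.25 TPM (48.9 ± 4.71). The gene is ENSMUSG00000042499.13 at chr2:74679557-74687016. Hoxd10, a gene of the limb and lumbar spinal cord, ENSMUSG00000050368.4 at chr2:74691924-74695105, had 32.54 and 35.4 TPM (34.0 ± 2.02). Hoxd9, ENSMUSG00000043342.9 at chr2:74697727-74700208, had 15.83 and 14.96 TPM (15.4 ± 0.615), on 604 and 575 counts. From Hoxd12 inward each of these genes lay below the one before it in both libraries, and no ranges overlapped. All 5 posterior genes lie within 31.9 kb of the 96.8 kb that the cluster spans.

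Hoxd8, ENSMUSG00000027102.4 at chr2:74704615-74707933, stood between the posterior genes and the rest, at 6.41 and 6.34 TPM (6.38 ± 0.0495) and 283 and 299 counts. Hoxd4 and Hoxd3, known for their part in the vertebrae of the neck, were near the limit of 1 TPM. Hoxd3, ENSMUSG00000079277.5 at chr2:74711927-74748442, had 1.12 and 1.25 TPM (1.19 ± 0.0919), and Hoxd4, ENSMUSG00000101174.2 at chr2:74711929-74729160, had 0.45 and 0.66 TPM (0.555 ± 0.148). Hoxd1, known from sensory neurons and other tissues of the early embryo, lies at the inner end, ENSMUSG00000042448.5 at chr2:74762980-74765142. It was lowest, at 0.33 and 0.36 TPM (0.345 ± 0.0212). Its 11 counts in replicate 1 had a 95% exact Poisson interval of 5.49 to 19.7, and its 12 counts in replicate 2 one of 6.20 to 21, so this level is known only to within several-fold; 33.5% of protein-coding genes had a lower mean.

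In order of mean TPM the genes ran Hoxd12, Hoxd13, Hoxd11, Hoxd10, Hoxd9, Hoxd8, Hoxd3, Hoxd4, Hoxd1. For all 8 pairs of neighbours in that order, both libraries of the higher gene lay above both libraries of the lower. With 2 against 2 values an exact permutation test cannot go below a two-sided p of 0.333, so no p is given. The mean fold between neighbours was 1.43 from Hoxd12 to Hoxd13, 1.45 from Hoxd13 to Hoxd11 and 1.44 from Hoxd11 to Hoxd10. The steps then widened, to 2.21-fold from Hoxd10 to Hoxd9, 2.41-fold from Hoxd9 to Hoxd8 and 5.40-fold from Hoxd8 to Hoxd3, the widest of the 8. Hoxd3 was 2.19-fold above Hoxd4, and Hoxd4 1.60-fold above Hoxd1. The quantifier's own TPM intervals, whose level the file headers do not state and which lie around the posterior mean rather than the TPM itself, were separate in both libraries for 6 of the 8 pairs and overlapped for Hoxd3 with Hoxd4 and Hoxd4 with Hoxd1.

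Promoter sequences are shown for the outermost gene, the highest gene and the lowest gene, because they mark the ends and the peak of the gradient. Each is the 250 bases before the RefSeq gene start in GRCm38.p6, the assembly of mm10, on the plus strand, 5′ to 3′. Capitals mark the CCAAT box, the core of the GC box (GGGCGG) and a form of the TATA box (TATAAA) on either strand, and neighbouring or overlapping matches run together. The windows are chr2:74667975-74668224 for Hoxd13, chr2:74674763-74675012 for Hoxd12 and chr2:74762730-74762979 for Hoxd1.
Hoxd13: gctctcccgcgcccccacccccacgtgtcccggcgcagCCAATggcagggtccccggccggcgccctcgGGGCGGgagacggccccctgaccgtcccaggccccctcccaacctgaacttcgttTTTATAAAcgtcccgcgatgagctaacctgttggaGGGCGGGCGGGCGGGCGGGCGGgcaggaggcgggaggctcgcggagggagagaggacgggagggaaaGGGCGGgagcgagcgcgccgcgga
Hoxd12: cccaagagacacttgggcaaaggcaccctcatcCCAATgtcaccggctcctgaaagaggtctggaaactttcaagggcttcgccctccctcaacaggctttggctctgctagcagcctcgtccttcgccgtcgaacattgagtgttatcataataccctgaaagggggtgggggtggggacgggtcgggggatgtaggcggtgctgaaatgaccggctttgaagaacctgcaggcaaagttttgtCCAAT
Hoxd1: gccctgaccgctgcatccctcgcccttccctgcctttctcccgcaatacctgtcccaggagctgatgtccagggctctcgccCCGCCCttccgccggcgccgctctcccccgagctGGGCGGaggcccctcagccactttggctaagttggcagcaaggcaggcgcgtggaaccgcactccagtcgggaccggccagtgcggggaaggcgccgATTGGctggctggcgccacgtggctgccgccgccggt
The Hoxd13 window had a GC content of 74.4% with 31 CpG, the Hoxd12 window 55.6% with 10 CpG, and the Hoxd1 window 71.6% with 24 CpG, beside medians of 52.4% and 6 CpG over all 32851 RefSeq windows of this length. The lowest gene and the outermost gene thus both had GC-rich windows, while that of the highest gene was close to the median in GC. All 9 genes matched, with 10 windows because Hoxd11 has 2. TATAAA was in 2 of the 10 (Hoxd13 and Hoxd4) and in 12.4% of all windows. CCAAT was in 7 of 10 and 33.8% of all windows, and GGGCGG in 4 of 10 and 32.7%. CAATAAA, a motif known for posterior Hox proteins and able to share letters with CCAAT, was in 0 of 10 and 4.2% of all windows. These are matches of letters in a window only.

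Among transcripts, 5 of the 9 genes (Hoxd13, Hoxd12, Hoxd10, Hoxd9 and Hoxd1) had 1 annotated transcript, and 4 had several. Of 19 transcripts in all, 17 had counts in replicate 1 and 13 in replicate 2, and 2 were listed at 0 in both. For Hoxd13 and Hoxd12, the genes of highest level, the files thus hold no split between transcripts.

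Hoxd11 was split between a protein-coding transcript, Hoxd11-202 (1111 nt), and a longer one annotated as a processed transcript, Hoxd11-201 (3367 nt), which has no annotated protein. Hoxd11-202 held 61.45% and 60.65% of the gene's TPM and Hoxd11-201 held 38.55% and 39.35%. By counts the order was opposite, with 1075.97 and 1267.45 counts assigned to Hoxd11-201 and 531.12 and 605 to Hoxd11-202. The longer transcript thus took 67.0% and 67.7% of the gene's counts. Hoxd11-202 ends at chr2:74684168, whereas Hoxd11-201 runs on to chr2:74687016. Of the Hoxd11 transcripts, only Hoxd11-201 can take reads from beyond the end of Hoxd11-202. Whether some of these reads come from coding RNA with a longer end was not tested. A count of protein-coding transcripts alone leaves all of them out. The libraries differed by less than 1 percentage point in each share.

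Counting only protein-coding transcripts, an alternative chosen after the values were seen, Hoxd11 stood at 28.02 and 31.69 TPM, below Hoxd10 at 32.54 and 35.4 TPM in both libraries (log2 ratio -0.19 ± 0.04). Hoxd12 and Hoxd13 were as before, since each has 1 coding transcript. At the low end Hoxd3 had 0.78 and 0.48 TPM and Hoxd4 0.28 and 0.31 TPM, which put Hoxd4 below Hoxd1 (log2 ratio -0.17 ± 0.01). This SD is the spread between the libraries and leaves out counting error. In replicate 2 the coding value of Hoxd4 rested on 8.07 counts and that of Hoxd1 on 12, too few to settle their order. The places of Hoxd11 and Hoxd10, and of Hoxd4 and Hoxd1, in the order of levels therefore depended on which transcripts were counted. The other 6 of the 8 pairs kept their direction in both libraries.

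**Figure D2:**
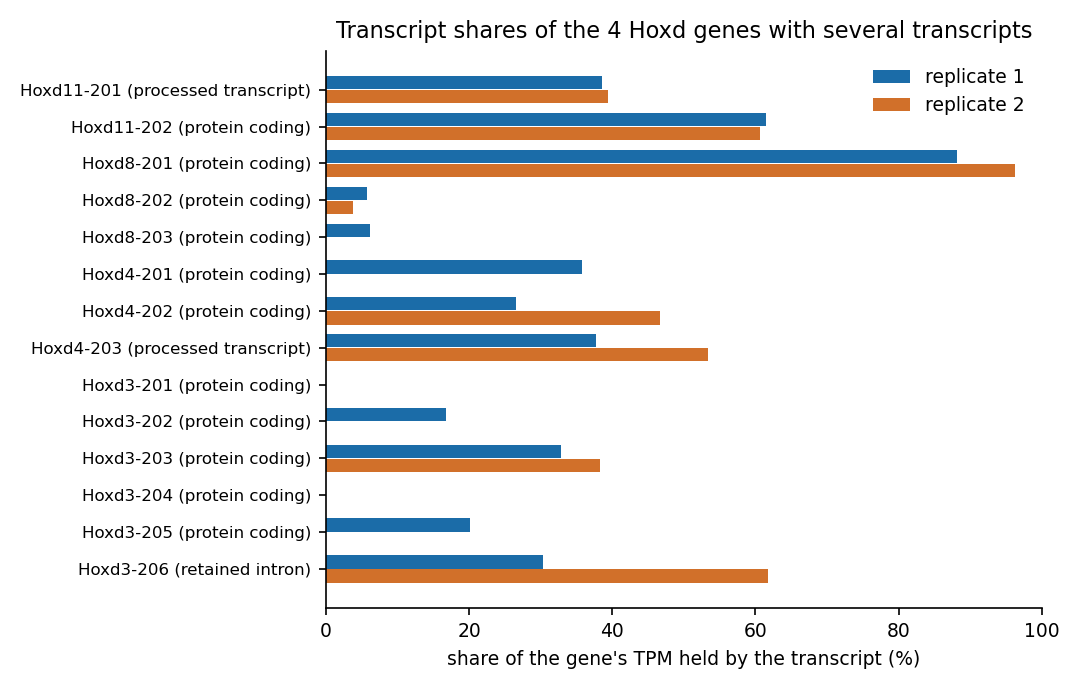
Share of each gene's TPM held by each annotated transcript, in percent, for the 4 Hoxd genes with several transcripts. Bars are the 2 replicates. Hoxd11 shares differ little between replicates, whereas that of Hoxd4-201 is 35.73% in replicate 1 and 0 in replicate 2.

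Hoxd8 was mostly 1 protein-coding transcript, Hoxd8-201, at 88.21% and 96.24% of its TPM. Shares within Hoxd3 and Hoxd4 differed widely between the libraries. Hoxd3-206, annotated as a retained intron, held 30.33% of Hoxd3 in replicate 1 and 61.72% in replicate 2, and protein-coding Hoxd3-203 held 32.85% and 38.28%. In Hoxd4 the protein-coding Hoxd4-201 went from 35.73% in replicate 1 to a listed 0 in replicate 2, while the processed transcript Hoxd4-203 held 37.73% and 53.36%. These shares rested on 45.89 and 64.12 counts for Hoxd3 and 14.6 and 16.27 for Hoxd4, so the order of these transcripts could not be told at this depth.

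How surely a read belongs to its gene differed along the cluster. Of all 100-nt windows in GENCODE M21 transcripts, 0% were shared with another gene for Hoxd13, Hoxd12, Hoxd9, Hoxd8 and Hoxd1. For Hoxd10 0.349% of windows and for Hoxd11 8.68% were shared with Gm28309, a noncoding gene on the same strand that runs from inside Hoxd11 into Hoxd10. Hoxd4 shared 41.1% of its windows with Gm28230 and Hoxd3, and Hoxd3 shared 57.8% with Gm28230 and Hoxd4; Gm28230 is a gene model that overlaps both. The split among these 3 genes is therefore uncertain, while their summed counts were 81.3 and 108.21. A further 8.16% of Hoxd4 windows and 5.98% of Hoxd3 windows lay opposite Hoxd3os1, an antisense gene, and whether counting used strand was not stated in these sources. The lengths of all 19 Hoxd transcripts in the files equalled those of GENCODE M21.

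Between Evx2 and Mtx2, the protein-coding genes that bound the cluster, the annotation holds 10 further genes, of which 1 was not analysed here and 4 reached 1 TPM in both libraries. The highest was Gm28309, at 25.5 and 30.35 TPM. It was followed by Hoxd3os1 at 6.62 and 7.41 TPM, Gm14396 at 1.43 and 2.19 TPM, and Gm28793, on the opposite strand just before Hoxd9, at 1.36 and 1.42 TPM. Thus 3 of these 4 lie among the posterior genes, and Hoxd3os1 spans Hoxd8 and the start of Hoxd3, with a level slightly above that of Hoxd8. Mir10b, which encodes the microRNA miR-10b within the overlapping Hoxd4 and Hoxd3 models, was listed at 0; its 80 nt are shorter than the 99 nt subtracted from each length, so the files cannot show it.

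The bounding genes lay at unlike levels. Evx2, a homeobox gene beside Hoxd13, had 5.60 and 7.02 TPM. Mtx2, a mitochondrial import gene beyond Hoxd1, had 88.43 and 93.85 TPM, far above Hoxd1. The fall of levels toward Hoxd1 therefore did not continue past the cluster.

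**Figure D3:**
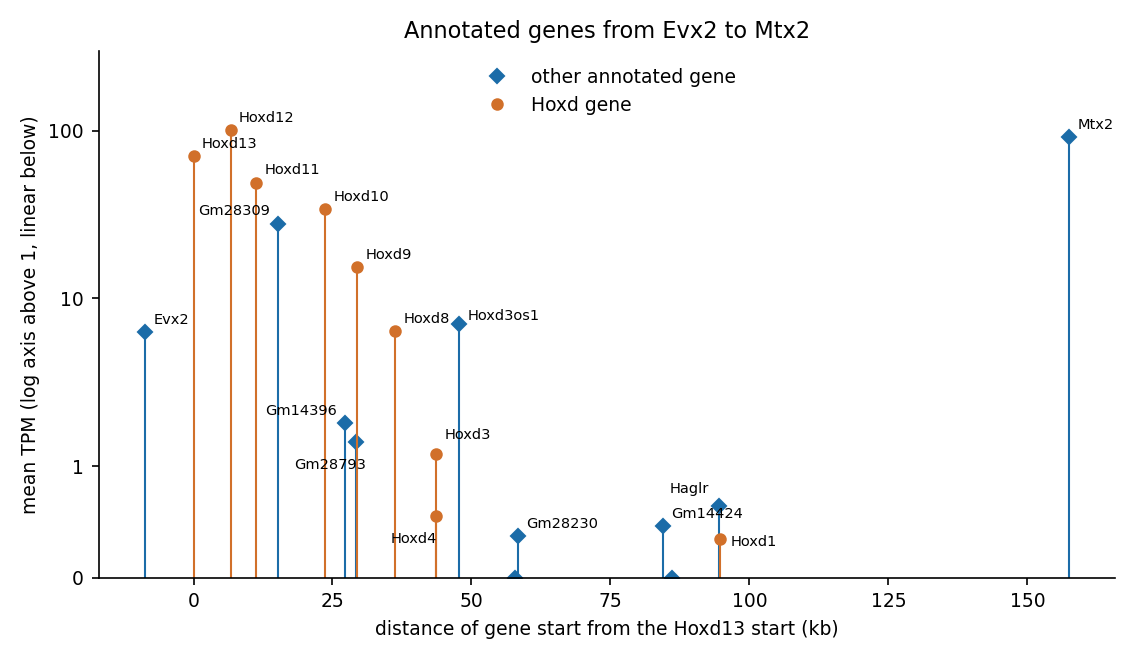
Mean TPM of the annotated genes from Evx2 to Mtx2 (log axis above 1, linear below) against the distance of each gene's start from that of Hoxd13, in kb. Orange circles are Hoxd genes and blue diamonds other genes; the 2 diamonds at 0 without a name are Mir10b and Gm14426. Levels fall from Hoxd12 at 101 TPM to Hoxd1 at 0.345 TPM, and Mtx2 beyond the cluster is at 91.1 TPM.

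Set beside the other Hox clusters, Hoxd held 35.9% ± 0.827 of the TPM of all 39 Hox genes (Hoxd sums of 262.51 TPM in replicate 1 and 294.85 TPM in replicate 2). The Hoxa sum was larger, at 438 ± 25.7 TPM, and Hoxc (48.5 ± 2.13) and Hoxb (10.6 ± 0.573) smaller. All transcripts were counted in these sums. Hoxa10 alone had a mean of 235.94 TPM this way, but 90.96 TPM with protein-coding transcripts alone. With protein-coding transcripts alone the Hoxa sum lay above the Hoxd sum in replicate 1 but not in replicate 2. The Hoxa lead itself, and the Hoxd share, therefore depended on which transcripts were counted. The share of groups 9 to 13 was 97.0% in Hoxd, 92.6% ± 0.724 in Hoxa, 61.6% ± 8.96 in Hoxc and 9.16% ± 0.638 in Hoxb.

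**Figure D4:**
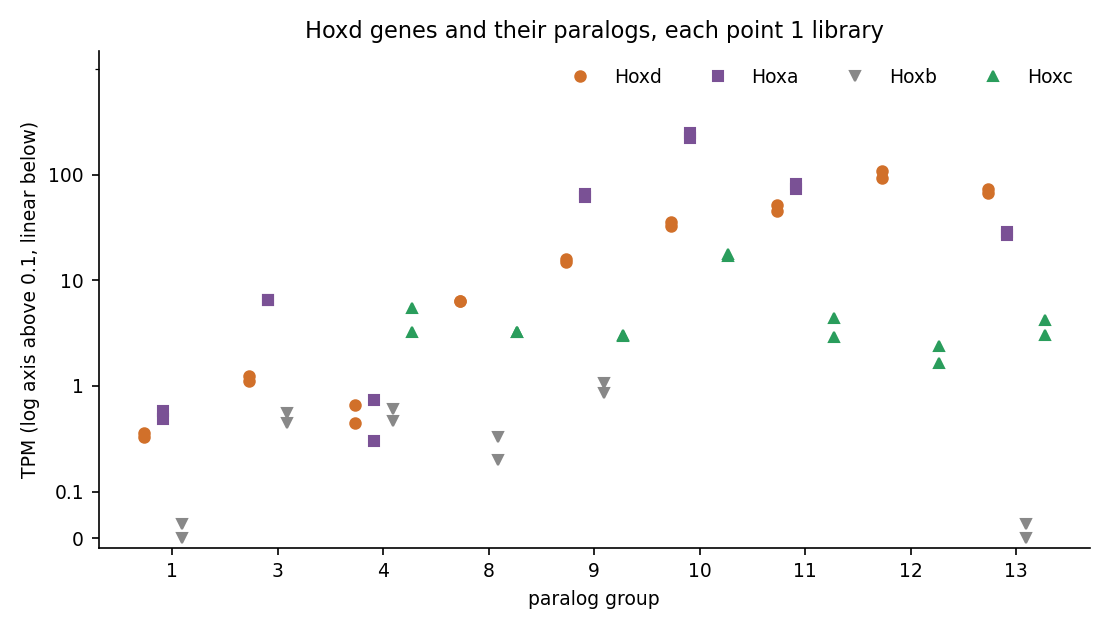
TPM of Hoxd genes and their Hoxa, Hoxb and Hoxc paralogs by paralog group (log axis above 0.1, linear below), each point 1 library. Hoxa genes stand above Hoxd in groups 9, 10 and 11, and Hoxd13 stands above Hoxa13.

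The Hoxd to Hoxa balance turned over along the posterior groups. Hoxd13 was 2.53-fold above Hoxa13, its partner in the digits, which had 27.22 and 28.75 TPM. Hoxd11 was below Hoxa11, which had 73.39 and 82.58 TPM and was 1.60-fold higher. Hoxd10 was below Hoxa10, which had the highest Hox level when all transcripts were counted, at 224.11 and 247.77 TPM and 6.94-fold higher, and Hoxd9 below Hoxa9, at 62.22 and 65.96 TPM and 4.16-fold higher. In each of these 4 pairs the libraries did not overlap. With protein-coding transcripts alone the log2 ratio of Hoxd10 to Hoxa10 moved from -2.79 to -1.42 and that of Hoxd11 to Hoxa11 from -0.67 to -1.38, with no change of direction. Hoxa10 then stood at 89.43 and 92.49 TPM, and Hoxd12, at 92.93 and 109.4 TPM, had the highest mean of the Hox genes. Over all 7 groups with both genes, Hoxd was above Hoxa in 1, below in 5 and overlapping in 1, Hoxd4 with Hoxa4.

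Against Hoxc, Hoxd was above in 6 of 7 pairs. Hoxd12 was 50.9-fold above Hoxc12 (1.66 and 2.39 TPM), and Hoxa and Hoxb have no group 12 gene, so Hoxd12 made up 98.1% ± 0.271 of its group's TPM. Hoxd13 was 20.0-fold above Hoxc13 (3.01 and 4.2 TPM), Hoxd11 13.8-fold above Hoxc11 (2.89 and 4.39 TPM), Hoxd9 5.09-fold above Hoxc9 (3 and 3.05 TPM) and Hoxd10 1.95-fold above Hoxc10 (17.04 and 17.86 TPM). The exception was Hoxd4, at 0.45 and 0.66 TPM, below Hoxc4, at 5.54 and 3.23 TPM, by 12.3-fold in replicate 1 and 4.89-fold in replicate 2. Against Hoxb, Hoxd was above in 5 of 6 pairs and overlapped in 1, Hoxd4 with Hoxb4; no fold is given against Hoxb13 and Hoxb1, which had a library at 0 counts and 1 count in the other.

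Seen by paralog group, Hoxd13 supplied 69.1% ± 0.163 of group 13, Hoxd8 64.4% ± 0.776 of group 8, and Hoxd11 37.5% ± 0.0861 of group 11. Hoxd9 supplied 18.5% ± 1.16 of group 9 and Hoxd10 11.8% ± 0.0917 of group 10. With protein-coding transcripts alone the Hoxd10 share was 23.8% ± 0.622, and several others moved too. Hoxd8 then held 81.8% ± 1.21 of its group, Hoxd11 26.9% ± 0.214 and Hoxd9 23.0% ± 0.219, while Hoxd13 held 69.3% ± 0.392. Among the low genes Hoxd1 supplied 38.7% ± 5.12, Hoxd3 14.5% ± 1.14 and Hoxd4 10.1% ± 5.68 of groups whose summed means were 0.895, 8.19 and 6 TPM. The Hoxd4 share was 6.13% in replicate 1 and 14.2% in replicate 2, and 5.55% ± 2.32 with protein-coding transcripts alone.

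Proteins of the Meis, Pbx and Pknox families bind DNA together with many Hox proteins. All 9 of these cofactor genes reached 1 TPM in both libraries, among them Meis1 (26.83 and 29.78 TPM) and Pknox1 (29.13 and 27.42 TPM), with Meis3 lowest (7.7 and 6.5 TPM). Their levels thus lay below those of Hoxd11, Hoxd12 and Hoxd13. Of 12 genes known to regulate the cluster, 11 reached 1 TPM. The highest were Ezh2, the Polycomb methyltransferase (132.83 and 131.88 TPM), the insulator protein gene Ctcf (120.84 and 133.44 TPM) and the cohesin gene Rad21 (56.23 and 59.13 TPM). Shh, the posterior signal that acts with Hoxd genes in a loop, was lowest at 0.08 and 0.07 TPM, on 4 and 3.49 counts. Of 12 genes reported to respond to posterior Hox proteins in limb, 11 reached 1 TPM, led by Aldh1a2, a retinoic acid synthesis gene (101.07 and 87.03 TPM), Epha7, an ephrin receptor gene (41.41 and 47.49 TPM), and Bmp2 (31.67 and 31.89 TPM), with Shh again lowest.

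The replicate libraries were compared to show which Hoxd levels differ by more than counting error. An exact conditional binomial test of each gene's counts against the ratio of library totals, two-sided, with Benjamini-Hochberg adjustment over 18580 genes, called 3 of the 9 Hoxd genes at an adjusted p under 0.05. Over all genes it called 16.6% (8.61% higher and 7.95% lower in replicate 2). The balance between directions over all genes turned with the scaling, while the same number of Hoxd genes, 3, was called: 1599 genes were higher and 1478 lower with library totals, 1462 and 1590 with TMM, and 1320 and 1728 with totals over Ensembl genes. The test compares libraries and not conditions, and covers counting error only.

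The 3 genes were the outermost, and each was higher in replicate 2. Hoxd12 had 4239 and 5025 counts (log2 difference 0.24, adjusted p = 1.42e-13 by the exact binomial test), Hoxd11 1607.09 and 1872.44 (0.21, adjusted p = 0.000249) and Hoxd13 3006 and 3338 (0.14, adjusted p = 0.000996). None was both called and at least 2-fold apart, as 1.81% of all genes were. Hoxd10 had a log2 difference of 0.13 and an adjusted p of 0.163 by the same exact test. For Hoxd9 the log2 difference was -0.08, for Hoxd8 0.07, for Hoxd3 0.47, for Hoxd4 0.08 and for Hoxd1 0.11, with adjusted p from 0.297 to 1 by that exact test. Of the 8975 genes with at least 1000 counts over both libraries, 94.2% differed less than Hoxd12, 92.5% less than Hoxd11 and 81.7% less than Hoxd13. edgeR's exact test adds a dispersion estimated from the same 2 libraries that it compares, which by itself lowers the number of calls. With it, 0 of the 9 genes were called and 0 had an unadjusted p under 0.05. Hoxd12 had an unadjusted p of 0.121 by edgeR's exact test.

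**Figure D5:**
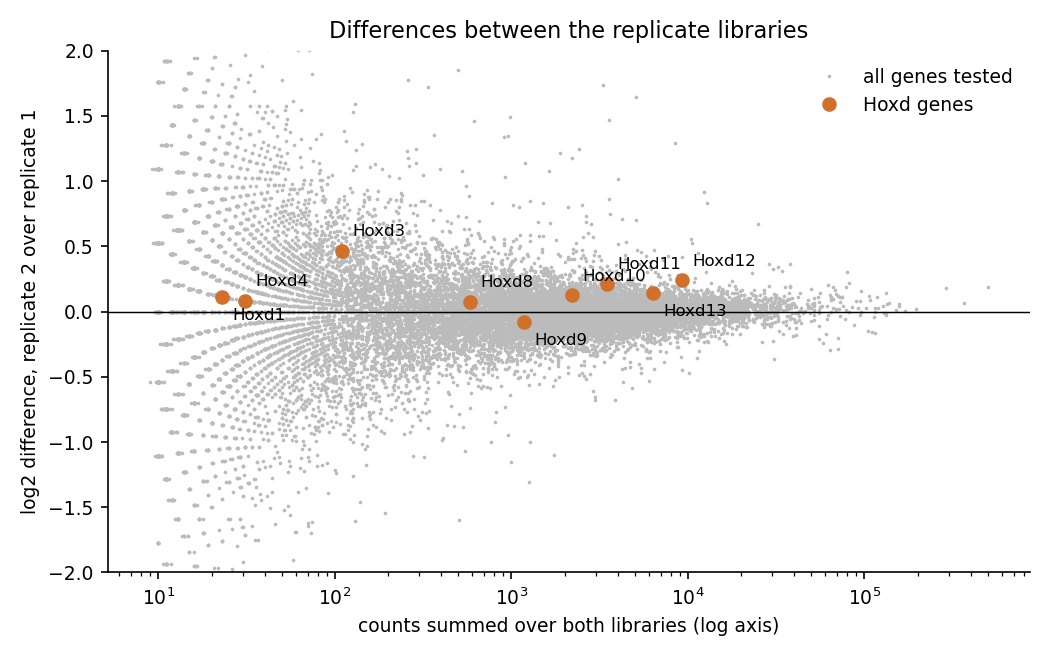
Log2 difference of replicate 2 over replicate 1 against the counts summed over both libraries (log axis), for all 18580 genes tested (grey) and the Hoxd genes (orange). Values beyond 2 in either direction are outside the plot. Hoxd12, Hoxd11 and Hoxd13 lie above 0, by 0.24, 0.21 and 0.14, and Hoxd9 lies below.

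Other genes differed between the libraries by the same test. Among 10 genes flanking the cluster, 3 were called higher in replicate 2, Evx2 (5.60 and 7.02 TPM), Lnpk, which lies beyond Evx2 (66.38 and 76.36 TPM), and Atp5g3 (797 and 826.49 TPM), and 1 lower, Hnrnpa3 (352.24 and 330.78 TPM). Hox genes of the other clusters went both ways, and those called higher were all posterior and those called lower all anterior. Called higher were Hoxa10, Hoxa11, Hoxc11 and Hoxc13, with log2 differences of 0.13, 0.17, 0.60 and 0.48, and called lower were Hoxc5, Hoxc4 and Hoxb5, with -1.07, -0.77 and -1.17. With library totals, all 4 posterior Hoxa genes and all 5 posterior Hoxc genes had log2 differences above 0, called or not, while Hoxb9 had -0.32. That of Hoxa9 was 0.0059, so small that its sign depended on the scaling of the libraries. Among the regulators of the cluster, Hand2, a posterior limb factor (16.81 and 21.1 TPM), and Tbx3 (26.54 and 30.08 TPM) were called higher. Gli1, of the same list, was called lower (10.16 and 8.27 TPM). The limb type genes were unequal too: hindlimb Pitx1 had 142.42 and 172.9 TPM and Tbx4 32.27 and 37.14 TPM, and forelimb Tbx5 had 35.17 and 24.11 TPM, all called. Of 7 neuron markers, 7 were called higher in replicate 2, including Prph at 0.16 and 3.94 TPM. Their median log2 difference was 1.04, beside 0.0045 over all genes tested, and they summed to 30.89 and 55.17 TPM. The median is that of Isl1 (7.31 and 14.07 TPM), which is on the list of limb type genes as well. No marker was at 0 in both libraries. Of 8 cartilage markers, 7 were called lower (median -0.64, summed 1060.8 and 920.92 TPM). Of 4 tested trunk tissue markers, 3 were called lower, and the 5 listed summed to 38.56 and 29.9 TPM. Tbx18 alone held 29.06 and 23.65 TPM of this sum, and only 2 of the 5 reached 1 TPM in both libraries. The 4 mesenchyme markers of the limb, Prrx1, Prrx2, Msx1 and Pdgfra, were all present, summing to 827.24 and 859.44 TPM, with Msx1 called higher. Of 11 tested regulators 2 were called higher and 1 lower (median 0.01), and of 11 tested genes reported to respond to posterior Hox proteins 2 higher and 5 lower (median -0.21). For the 9 Hoxd genes the median was 0.13. Muscle markers summed to 791.9 and 773.54 TPM, ectoderm markers to 316.83 and 294.91, endothelium markers to 124.48 and 118.51, blood markers to 8514.36 and 8488.65 and macrophage markers to 25.18 and 21.75. The part of any of these in the Hoxd difference was not tested.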

How the data were processed

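Total RNA-seq of 2 biological replicates of embryonic limb was analysed from gene and transcript tables. The expected counts deposited by the authors are estimated counts per gene that need not be whole, as the file headers name them; they were rounded for count tests. The deposited TPM values are scaled over all rows, and their effective lengths were the length minus 99 nt. The deposited percent values give each transcript's share of its gene, per the file headers. The assembly was mm10 with GENCODE M4 gene models, as the deposited text files state. For the aligner, the quantifier and strand use, names and versions were not given in the sources used here. Names, coordinates and transcript types came from GENCODE M21, of the same assembly, with 42462 of 43346 Ensembl genes matched; promoters came from RefSeq. Rows that were not Ensembl genes held 3.28% and 2.30% of counts and stayed in the library totals.

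The labels give 1 group, so there is no contrast for edgeR's quasi-likelihood test, and levels are described by library, mean and SD. Log ratios between genes used a pseudocount of 0.1 TPM. Libraries were compared by an exact binomial test, conditional on each gene's sum, for genes of 10 or more summed counts, with a prior of 0.5 counts in the log2 difference. They differed beyond sampling noise (chi-square 6.61 per degree of freedom, 16995 genes), so they were not 1 library deposited again. The labels call the replicates biological, and each is a pool of embryos. Without molecular identifiers, Poisson intervals cover counting error only. The test was checked on simulated data. The simulated counts held counting error only, so the check does not cover the wider spread between these libraries. All members are named; in the cofactor, regulator and target lists the 3 highest and the lowest are, with posterior Hoxa and Hoxc genes and the genes between Evx2 and Mtx2 that reach 1 TPM, while markers are given mostly as sums; 1 gene that this rule takes is not reported here. The regulators called between the libraries are named too. With 2 libraries of 1 group, no gene could be ranked for a pattern like that of a member. Members and lists were chosen with earlier results of these data known. Alternatives changed the estimate, length scaling, pseudocount, library scaling, filter, test and detection limit, or dropped 1 replicate. The R version was 4.3.3 (DESeq2 1.42.0, edgeR 4.0.16), and Python 3.11.15 ran scipy 1.17.1, numpy 2.4.6, matplotlib 3.10.9 and pandas 2.3.3.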

Additional observations from a re-analysis of the deposited data

How the results depend on the processing

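The posterior to anterior Hoxd ratio was 28.3 with posterior mean TPM, beside 31.9, and 30.6 to 33.2 with each replicate left out. The binomial test called 3 Hoxd genes under TMM, DESeq2 size factors, totals over Ensembl genes (an alternative added after seeing the data) and both other filters. edgeR's exact test called 0 of them, and 232 genes in all instead of 3077. The dispersion it adds comes from the same difference between libraries that it tests, so a loss of calls was built in. Genes called with at least 2-fold numbered 336, but 70 with at least 100 counts, where fewer genes are tested, and 157 with edgeR. The log2 ratio of Hoxd4 to Hoxa4 (0.16) was -0.61 without replicate 2, 0.93 without replicate 1 and -0.55 with protein-coding transcripts only, and that of Hoxd4 to Hoxb4 (0.02) was -0.37 without replicate 2, 0.42 without replicate 1, -0.60 without length scaling and -0.69 with protein-coding transcripts only. With protein-coding transcripts only, also added after seeing the data, Hoxd11 to Hoxd10 was -0.19, beside 0.52, and Hoxd4 to Hoxd1 -0.17, beside 0.54. Among values of single genes, pairs and transcripts under alternatives that kept both replicates, 147 stayed within 1 SD or on their side of the threshold, 65 moved by more without reversing, and 3, the Hoxd genes called above, lost their call with edgeR. The cause was not tested. No paired analysis was possible because the labels give only 1 group. With 2 replicates, leaving out 1 moves a mean by a fixed share of its SD, so such values show stability only in their sign. The library comparison needs both replicates, so no replicate was left out of it. Counts of 11 to 64.12 per library limit Hoxd1, Hoxd3 and Hoxd4.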
